A study of Mus musculus with 12 samples.

Results

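Potassium channel genes were followed in the arcuate nucleus (ARC) of the hypothalamus in wild-type (WT) mice and in mice homozygous for the R299Q γ2 AMPK mutation (Homo). The genes were all rows of the expression table whose symbol opens with Kcn, further letters and a number, which takes in the pore-forming subunits and most of their auxiliary subunits. Kcnj8 and Kcnj11, the pore genes of the ATP-sensitive channel, were left out of the set. Of 92 such rows, 1 was a second identifier of Kcnb2 and was dropped, which left 91 genes of the 38283 in the table.

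RNA was sequenced from laser-captured ARC of 5 WT and 7 Homo libraries, all from freely fed C57BL/6 male mice aged 8 weeks. Both genotypes came from crosses of heterozygotes, and Homo mice carried the knocked-in R299Q change in both alleles of Prkag2, the gene of the γ2 regulatory subunit of AMPK, in every cell type of the capture. Values were in FPKM, a unit that corrects for transcript length and for the mapped fragments of each library, so levels can be compared between genes. The labels number the libraries but do not say that each came from 1 animal, so every p-value below measures the spread between these libraries.

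Potassium channels let potassium ions leave or enter the cell, and by this set the resting potential, the shape of the action potential and the rate of firing. Voltage-gated channels open on depolarization and repolarize the membrane, calcium-activated channels couple spikes to the after-hyperpolarization, inward rectifiers hold the resting potential and carry the inhibitory response to many G protein-coupled receptors, and two-pore channels carry background leak current. In the ARC they set the excitability of the neurons that express AGRP and NPY and of those that express POMC, and in glia they clear potassium from the extracellular space.

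The libraries fell into 2 sets by how many genes were above 0, with the widest gap between 7 that held fewer (15742 to 16467; WT 1, WT 2 and Homo 1 to Homo 5) and 5 that held more (18141 to 18635; WT 3 to WT 5, Homo 6 and Homo 7). The labels name no batch for this split, and differences are given within each set where they bear on a result. Markers of the ARC were abundant in the captures: 9 of them, among them Agrp, Npy and Pomc, had a summed level of 1285 to 4516 FPKM in WT (median 3170) and 3416 to 5168 FPKM in Homo (median 4006). For 3 markers of the neighbouring ventromedial nucleus the sum was 0.612 to 4.14 FPKM in either genotype. Npy alone averaged 1281 FPKM, so the 2 sums do not compare like with like. All 9 ARC markers had a log2 fold change above 0, with a median of 0.44, 3 of them at an unadjusted p under 0.05 and 0 at an adjusted p under 0.05 (limma); within the set holding fewer genes 5 of the 9 were above 0. Glial lists were also present, and all 7 microglial markers were higher in Homo, with a summed level of 47.2 to 70.3 FPKM in WT and 66.5 to 113 FPKM in Homo. The pituitary hormone gene Gh stood at 61.5 FPKM in WT 3, at 64.5 FPKM in WT 5, at 54.5 FPKM in Homo 7 and at or below 0.139 FPKM elsewhere. These 3 libraries lie in the set with more genes above 0. Cga, another pituitary marker, was at 50.2 FPKM in WT 3 and at or below 9.37 FPKM elsewhere. WT 3 also had the lowest Npy, Pomc and Agrp of all libraries, at 514, 190 and 181 FPKM. The 5 pituitary markers summed to at most 115 FPKM in WT and 55.6 FPKM in Homo. The part of these cell types in the results below was not tested, and in bulk tissue fewer cells of a type and less RNA per cell cannot be told apart.

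The ARC expressed members of every potassium channel family, most of them at modest levels. Of the 91 genes, 16 had a mean of at least 10 FPKM over the 12 libraries, 41 lay between 1 and 10 FPKM, 27 were below 1 FPKM and 7 were listed at 0 in every library. Kcnj10, the main inward rectifier of astrocytes and oligodendrocytes, was the highest at 56.3 FPKM, which placed it at the 91.5th percentile of the 14017 genes with a mean of at least 1 FPKM. Next came Kcnc1 (32.2 FPKM), which codes for a fast-activating channel of rapidly firing neurons, and Kcnh2 (28.9 FPKM), the ERG channel gene. The genes listed at 0 throughout were Kcna7, Kcna10, Kcne3, Kcnj1, Kcnk16, Kcnk18 and Kcnmb3.

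**Figure D1:**
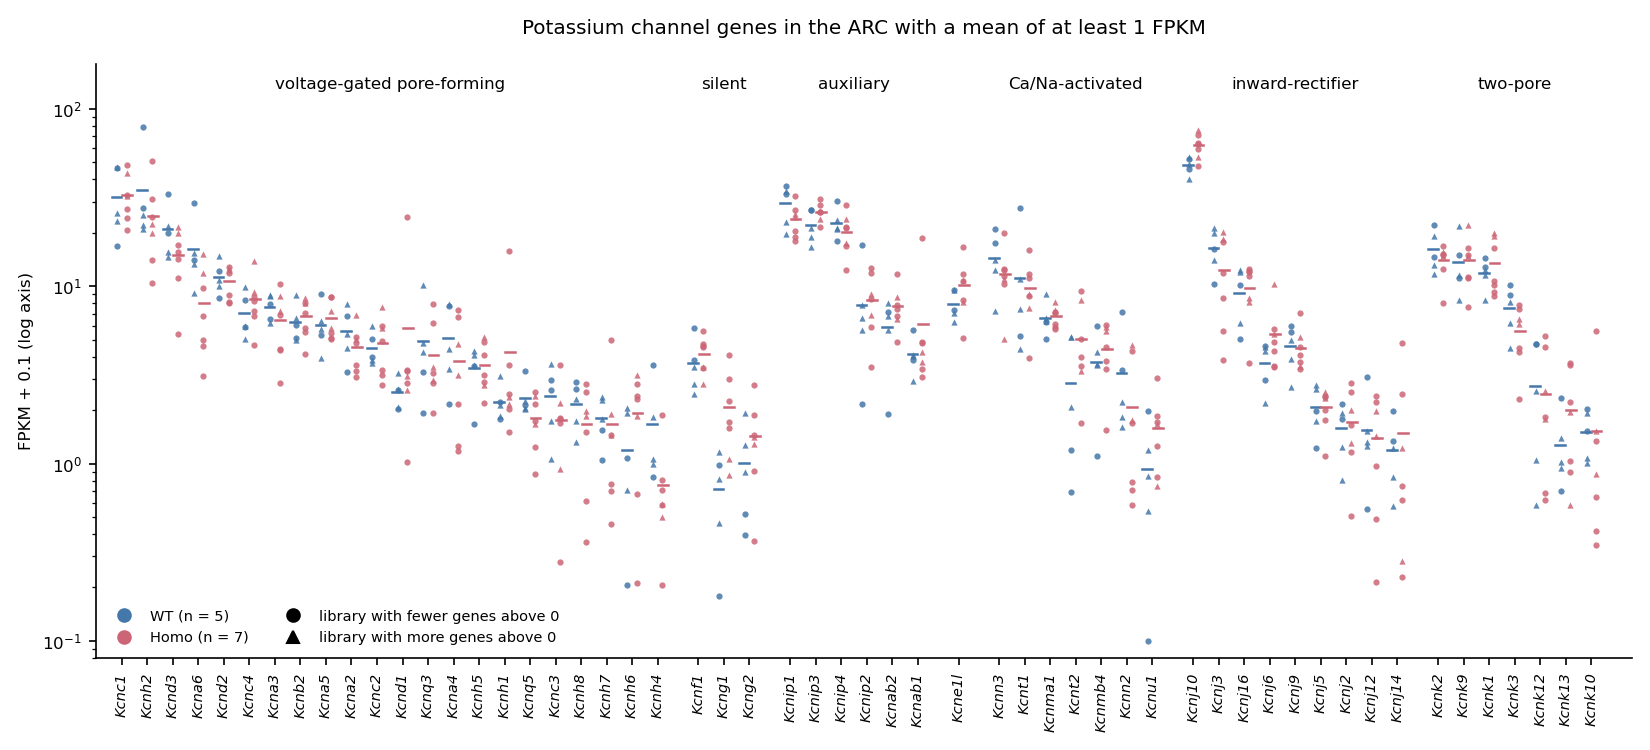
FPKM plus 0.1 on a log axis for 55 potassium channel genes with a mean of at least 1 FPKM, by family, with 1 point per library, WT in blue (n = 5), Homo in red (n = 7), horizontal lines at the genotype means, circles for libraries with fewer genes above 0 and triangles for those with more. Kcnj10 has the highest mean, with values from 40.0 to 76.3 FPKM, Kcnh2 in WT 1 reaches 78.9 FPKM, and the genotypes overlap for every gene shown.

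Between genotypes, no potassium channel gene passed the test. Of the 57 genes with a mean of at least 1 FPKM, 0 had an adjusted p under 0.05 (limma on log2(FPKM + 1), Benjamini-Hochberg over 14017 genes), and the lowest adjusted p among them was 0.819; over all genes tested, 1 passed (0.00713%). At an unadjusted p under 0.05 the members counted 3 of 57, against 5.55% of all genes tested, close to the background. Kcng1 and Kcnj10 were the 2 higher in Homo (background 3.05%) and Kcna6 the 1 lower (background 2.5%). In no member were the WT and Homo values separate, against 31 genes (0.221%) of all tested. The log2 fold changes of the members had a median of 0.04, against -0.01 over all genes, and 32 of 57 were above 0 (49.3% of all genes were). Their standard errors ran from 0.16 to 0.47 with a median of 0.30, equal to the median over all genes. The log2 fold changes ran from -1.0 for Kcna6 to 0.84 for Kcng1. Kcng1, Kcng2 and Kcnu1 reached a mean of 1 FPKM through Homo alone and Kcnh4 through WT alone, so the level required for the test favoured a difference in these 4.

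**Figure D2:**
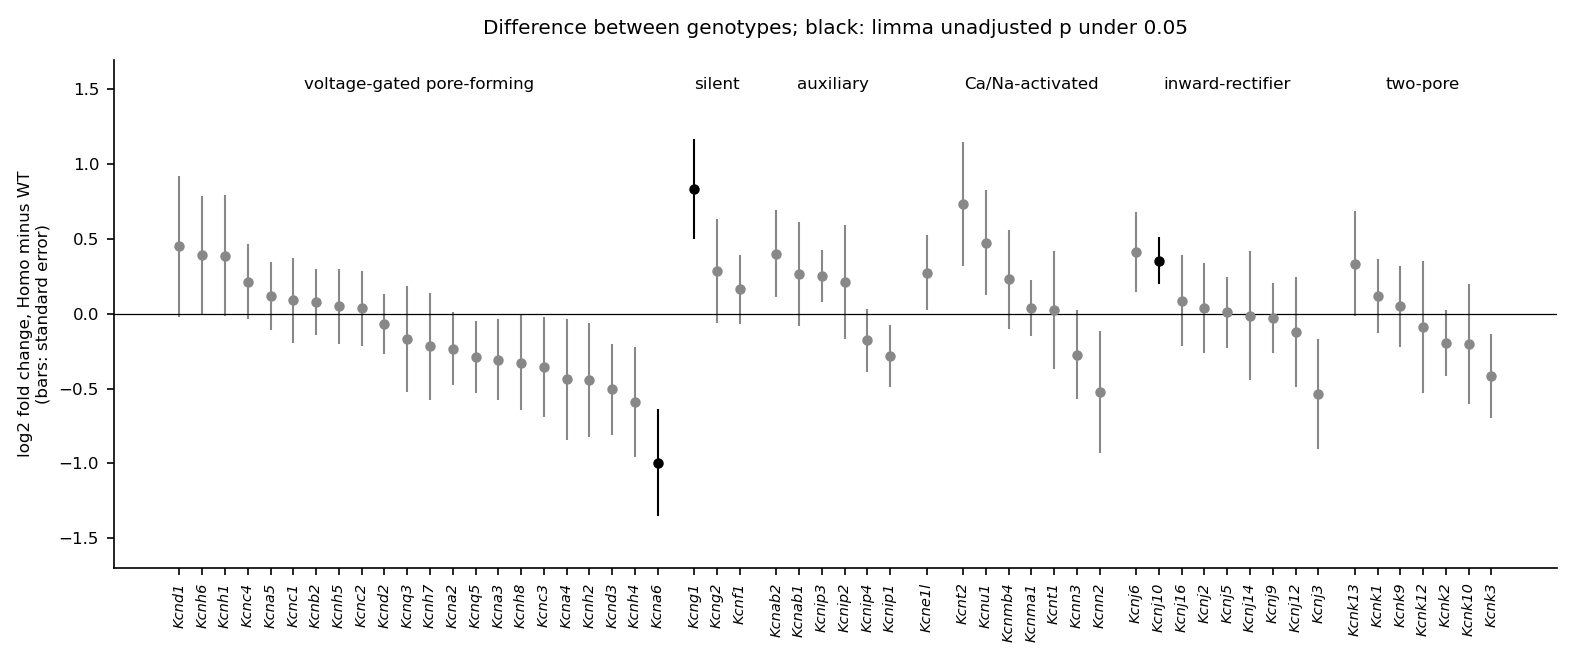
Log2 fold change of Homo against WT on the log2(FPKM + 1) scale for 55 of the genes tested, by family, with bars for the standard error of the limma fit; the 3 genes with an unadjusted p under 0.05 are in black. The values lie between -1.0 for Kcna6 and 0.84 for Kcng1, and none passed the adjusted threshold.

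Among the voltage-gated pore-forming genes, 24 of 30 were tested, and 11 were higher and 13 lower in Homo, with a median log2 fold change of -0.12. Their summed level was 214 FPKM ± 41.2 (SD, n = 5) in WT and 195 FPKM ± 22.7 (SD, n = 7) in Homo, a difference smaller than the spread between WT libraries. Kcna6, a Shaker-type delayed rectifier subunit of axons, lay furthest from 0. The gene lies on chromosome 6 from 126708329 to 126740674 on the minus strand (GRCm38). It measured 29.3, 14.0, 9.02, 13.3 and 15.3 FPKM in WT 1 to WT 5, and from 3.00 to 15.1 FPKM with a median of 6.66 FPKM in Homo. One Homo library of 7 exceeded the WT median. The log2 fold change was -1.0 (SE 0.36, limma adjusted p = 0.819; exact permutation p = 0.0316, two-sided, where 792 splits allow no p below 0.0013).

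The low Kcna6 values of Homo lay in the library set with fewer genes above 0. There the only 2 WT libraries held 29.3 and 14.0 FPKM and the Homo libraries 4.52, 6.66, 3.00, 4.89 and 9.61 FPKM. In the other set the WT libraries held 9.02, 13.3 and 15.3 FPKM and the Homo libraries 11.7 and 15.1 FPKM, which lie within the WT range. The log2 fold changes were -1.74 and 0.11, and -0.89 with the set as a covariate. The interaction of genotype and set was 1.85 (SE 0.59), with a limma adjusted p of 0.876 over all genes. Leaving out single libraries moved the value between -1.16 and -0.77, the weakest without WT 1, which held the highest Kcna6 level of all.

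**Figure D3:**
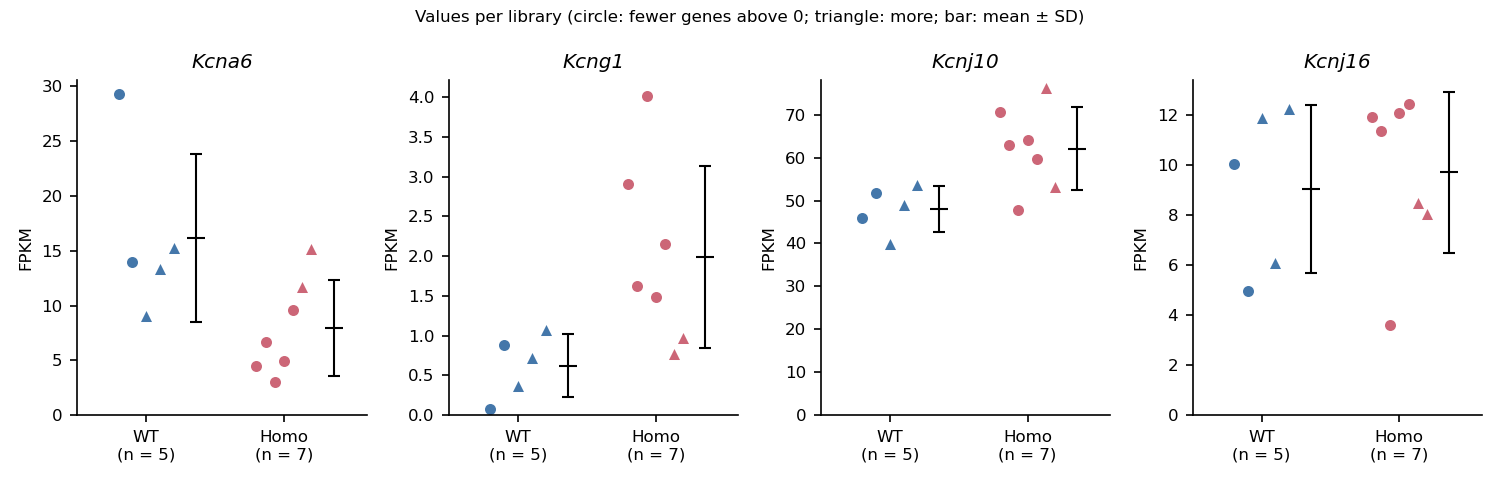
FPKM in each library for the 3 potassium channel genes with an unadjusted p under 0.05 and for Kcnj16, the partner of Kcnj10, with WT (n = 5) in blue and Homo (n = 7) in red, circles for libraries with fewer genes above 0, triangles for those with more, and bars for the mean ± SD. Low Kcna6 and high Kcng1 values in Homo are circles, and Kcnj16 has a log2 fold change of 0.09. For Kcnj10 the log2 fold change is 0.31 among circles and 0.43 among triangles, and WT and Homo values overlap in both symbols.

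The other Shaker-type genes showed smaller differences. Kcna2, which forms axonal channels with Kcna1, measured 5.46 FPKM ± 1.82 (SD, n = 5) in WT and 4.45 FPKM ± 1.33 (SD, n = 7) in Homo. Kcna1 itself had a mean of 0.653 FPKM and was below the level required for the test. It lies 61944 bases from Kcna6 on the same strand, and Kcna6 averaged 11.4 FPKM. Kcna3 and Kcna5 lay at 6.84 and 6.26 FPKM over all libraries, with log2 fold changes of -0.31 (SE 0.27) and 0.12 (SE 0.23).

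The Shal-type genes carry the transient A-type current that delays the first spike. Kcnd3 measured 32.8, 19.9, 14.5, 15.5 and 21.8 FPKM in WT 1 to WT 5, and 5.31 to 21.4 FPKM with a median of 15.5 FPKM in Homo. Its log2 fold change was -0.51 (SE 0.30), and like that of Kcna6 it took opposite signs in the library sets, -1.06 where fewer genes were above 0 and 0.26 where more were. Kcnd2 was steadier, from 8.45 to 14.6 FPKM in WT and 7.93 to 12.8 FPKM in Homo, with a log2 fold change of -0.07 (SE 0.20). Kcnd3 exceeded Kcnd2 in 10 of 12 libraries, and both exceptions were Homo. The fit for Kcnd1 rested on 1 library, since Homo 4 held 24.4 FPKM against 0.917 to 3.28 FPKM elsewhere; this gene was singled out after its values were seen.

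The Kcnq genes form the M-channel, a slow non-inactivating current that is closed by muscarinic and other Gq-coupled receptors. Kcnq3 was scattered, at 4.79 FPKM ± 3.16 (SD, n = 5) in WT and 3.99 FPKM ± 2.17 (SD, n = 7) in Homo, with a log2 fold change of -0.17 (SE 0.35). Kcnq5 averaged 1.93 FPKM (log2 fold change -0.29, SE 0.24), and Kcnq1 stayed below 1 FPKM.

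The ERG and Shaw genes overlapped widely between genotypes. Kcnh2 had a log2 fold change of -0.44 (SE 0.38), and its WT mean of 34.97 FPKM ± 24.7 (SD, n = 5) was set by 1 library, WT 1 at 78.9 FPKM, the others lying between 21.01 and 27.7 FPKM. Kcnc1 ranged from 16.8 to 46.8 FPKM in WT and 20.7 to 48.0 FPKM in Homo, with a log2 fold change of 0.09 (SE 0.28). Kcnh1 held 15.7 FPKM in Homo 3 against 1.40 to 3.48 FPKM in the other 11 libraries, and was likewise singled out after its values were seen.

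The silent subunits form no channel alone and modify Shab-type channels when assembled with them. All 10 were low, and the 3 tested, Kcnf1, Kcng1 and Kcng2, had log2 fold changes above 0. Kcng1 and Kcng2 reached the level required for the test through Homo alone, which favoured this sign. Those not tested had values of both signs, from -0.47 to 0.54, when entered without a minimum level. Kcng1 lies on chromosome 2 from 168260117 to 168281736 on the minus strand. It measured 0.0798, 0.875, 0.36, 0.715 and 1.07 FPKM in WT 1 to WT 5, and 0.763 to 4.02 FPKM with a median of 1.62 FPKM in Homo. All 7 Homo libraries exceeded the WT median, and the ranges overlapped. Its WT mean was 0.619 FPKM, below the level required for the test.

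The log2 fold change of Kcng1 was 0.84 (SE 0.33, limma adjusted p = 0.887; exact permutation p = 0.0177). Because Kcng1 entered the test through its Homo values, these p-values cannot serve as support for a difference. The value was 0.14 in the library set with more genes above 0 and 1.22 in the other set. Kcng1 made up 7.84% ± 4.83 (SD, n = 5) of the summed level of the silent subunits in WT and 19.7% ± 8.92 (SD, n = 7) in Homo. Kcnf1 was the highest of them at 3.87 FPKM (log2 fold change 0.16, SE 0.23), and Kcng2 was at 1.16 FPKM (0.29, SE 0.35). Kcng1 is at the level where members scattered most: the coefficient of variation over all libraries had a median of 65.3% for the 15 members between 1 and 2 FPKM and of 32.4% for the 16 members at 10 FPKM or more.

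The auxiliary subunits were led by the Kcnip genes, whose calcium-binding products speed the trafficking and recovery of Shal-type channels. Kcnip1 measured 29.3 FPKM ± 7.48 (SD, n = 5) in WT and 23.7 FPKM ± 5.05 (SD, n = 7) in Homo, with a log2 fold change of -0.28 (SE 0.21), and no Homo library exceeded the WT median. Kcnip3 went the other way, from 22.1 FPKM ± 4.72 (SD, n = 5) to 26.2 FPKM ± 3.04 (SD, n = 7), with a log2 fold change of 0.25 (SE 0.17) and all 7 Homo libraries above the WT median. With the library set as a covariate the Kcnip3 value was 0.17 (SE 0.17). It was -0.024 in the set with fewer genes above 0 and 0.40 in the set with more. For Kcnip1 the values were -0.33 (SE 0.22), -0.60 and -0.0083. Neither reached an unadjusted p of 0.05, with exact permutation p = 0.173 for Kcnip1 and 0.0896 for Kcnip3. Kcnip4 had a WT mean of 22.7 FPKM and a Homo mean of 20.3 FPKM, and overlaps other annotated genes, one of them, the pseudogene Gm10025 on the opposite strand, at 30.9 FPKM; whether the counting used strand is not stated. Kcnab1 and Kcnab2, which code for cytoplasmic beta subunits of Shaker-type channels, averaged 5.18 and 6.85 FPKM, and Kcnab1 held 18.6 FPKM in Homo 1 against 2.82 to 5.60 FPKM elsewhere, again noticed after the values were seen.

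Kcne1l, an older symbol for a single-span beta subunit on the X chromosome, had a mean of 9.18 FPKM and a log2 fold change of 0.28 (SE 0.25). The other Kcne genes were listed at or below 0.447 FPKM in every library. Summed over the auxiliary family without Kcne1l, the level was 92.5 FPKM ± 16.1 (SD, n = 5) in WT and 93.1 FPKM ± 17.2 (SD, n = 7) in Homo.

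Of the calcium- and sodium-activated genes, 7 of 12 were tested, and 5 were higher and 2 lower in Homo with a median log2 fold change of 0.04. Kcnn3, the SK channel subunit that shapes the medium after-hyperpolarization, was the highest. It measured 20.8, 17.4, 13.9, 7.14 and 12.2 FPKM in WT 1 to WT 5 and 4.93 to 19.7 FPKM with a median of 11.4 FPKM in Homo. The log2 fold change was -0.27 (SE 0.30), and 1 Homo library exceeded the WT median. With the library set as a covariate the Kcnn3 value was -0.51 (SE 0.25, limma adjusted p = 0.978). It was -0.53 in the set with fewer genes above 0 and -0.48 in the set with more. Kcnn2 averaged 2.46 FPKM and Kcnn1 and Kcnn4 stayed below 1 FPKM. The Kcnn2 log2 fold change of -0.53 (SE 0.41) took opposite signs in the library sets, -1.40 and 0.47.

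Kcnma1, the pore of the large-conductance BK channel, was the most even of the members tested, with a coefficient of variation of 16.5%. It measured 6.56 FPKM ± 1.45 (SD, n = 5) in WT and 6.69 FPKM ± 0.899 (SD, n = 7) in Homo. Kcnmb4, the neuronal BK beta subunit, measured 3.61 FPKM ± 1.74 (SD, n = 5) in WT and 4.30 FPKM ± 1.63 (SD, n = 7) in Homo. It overlaps 2 antisense genes, Kcnmb4os1 and Kcnmb4os2, at 2.80 and 2.62 FPKM. The other BK beta genes, Kcnmb1 to Kcnmb3, were below 1 FPKM. Kcnu1, the pH-sensitive relative of Kcnma1 best known from sperm, was listed at 0 in WT 1 and at up to 2.96 FPKM elsewhere.

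Kcnt1 and Kcnt2 code for the sodium-activated channels. Kcnt1 spanned 4.33 to 27.6 FPKM among WT libraries and 3.84 to 15.9 FPKM among Homo libraries (log2 fold change 0.03, SE 0.40). Kcnt2 measured 0.589, 1.08, 5.04, 1.99 and 5.05 FPKM in WT 1 to WT 5 and 1.59 to 9.32 FPKM with a median of 3.87 FPKM in Homo, with 6 of 7 Homo libraries above the WT median. Its difference was 0.73 on the log2 scale (SE 0.41; exact permutation p = 0.14). With the library set as a covariate the value was 0.98 (SE 0.39), and Kcnt2 and Kcna6 were then the 2 members with an unadjusted p under 0.05 (background 4.78%).

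Of the inward-rectifier genes, 9 of 13 were tested, with 5 higher and 4 lower in Homo and a median log2 fold change of 0.01. Kcnj10 lies on chromosome 1 from 172341210 to 172374085 on the plus strand. It measured 46.0, 51.7, 40.0, 48.9 and 53.7 FPKM in WT 1 to WT 5, and 47.8 to 76.3 FPKM with a median of 63.0 FPKM in Homo. Of the 7 Homo libraries 6 exceeded the WT median, and the ranges overlapped between 47.8 and 53.7 FPKM. The log2 fold change was 0.36 (SE 0.16, limma adjusted p = 0.899; exact permutation p = 0.0177).

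Kcnj10 had values of the same sign in both library sets, at 0.31 (SE 0.22) and 0.43 (SE 0.26), and at 0.36 (SE 0.17) with the set as a covariate. Over all genes tested, 50.9% had opposite signs in the 2 sets, so a shared sign is common. Leaving out single libraries moved it between 0.29 and 0.42. It formed 53.8% ± 5.10 (SD, n = 5) of the summed level of the inward-rectifier genes in WT and 62.0% ± 6.94 (SD, n = 7) in Homo. Kcnj10 belongs to glia, so the glial lists are given beside it. Of 8 astrocyte markers, 6 were higher and 2 lower in Homo, with a median log2 fold change of 0.19 and 0 at an unadjusted p under 0.05. With the library set as a covariate 7 were higher and 1 lower, and 1 was lower at an unadjusted p under 0.05 (297 of all 14017 genes). Their summed level was 298.6 to 476 FPKM in WT and 251 to 440 FPKM in Homo. Slc1a2, the highest of the 8, weighs most in that sum and was 1 of the 2 lower, at 206 FPKM ± 72.0 (SD, n = 5) in WT and 145 FPKM ± 57.1 (SD, n = 7) in Homo. All 7 oligodendrocyte markers were higher, with a median log2 fold change of 0.40 and a summed level of 89.3 to 556 FPKM in WT and 155 to 409 FPKM in Homo. No defining marker of either list was at 0 in all libraries, and their part in the Kcnj10 value was not tested.

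Kcnj16, the subunit that assembles with Kcnj10 in glia, had similar levels in the genotypes. It measured 10.05, 4.95, 11.9, 6.09 and 12.2 FPKM in WT 1 to WT 5 and 3.59 to 12.4 FPKM with a median of 11.4 FPKM in Homo, with a log2 fold change of 0.09 (SE 0.30). Kcnj10 exceeded Kcnj16 in all 12 libraries, by a median ratio of 4.57 in WT and 5.93 in Homo.

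The G protein-gated inward rectifiers, through which opioid, GABA-B and NPY receptors silence ARC neurons, were led by Kcnj3. It measured 10.2, 16.0, 20.0, 14.0 and 21.2 FPKM in WT 1 to WT 5 and 3.72 to 20.0 FPKM with a median of 11.8 FPKM in Homo. Kcnj6, with which it assembles in most neurons, measured 4.48, 2.84, 2.08, 4.45 and 4.19 FPKM in WT and 3.39 to 10.2 FPKM with a median of 4.77 FPKM in Homo. The log2 fold changes were -0.53 (SE 0.37) and 0.41 (SE 0.27), in opposite directions, and neither passed the test. For Kcnj3 the value was -0.28 (SE 0.33) with the library set as a covariate, -0.58 in the set with fewer genes above 0 and 0.08 in the set with more. For Kcnj6 it was 0.52 (SE 0.27), 0.19 and 0.92. The ratio of Kcnj3 to Kcnj6 ran from 2.28 to 9.59 in WT, with a median of 5.04, and from 1.08 to 3.80 in Homo, with a median of 1.80. This ratio is a description, was not split by library set and was not tested. Kcnj3 was higher in the set with more genes above 0, by 0.91 on the log2 scale. The set with fewer held 2 of the 5 WT and 5 of the 7 Homo libraries, so set and genotype are mixed in the ratio. Kcnj9 (4.45 FPKM) and Kcnj5 (1.97 FPKM), the other members of this group, had log2 fold changes of -0.03 (SE 0.23) and 0.01 (SE 0.24). Kcnj9 lies 11891 bases from Kcnj10, on the opposite strand.

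The classical strong rectifiers were low, with Kcnj2 at 1.56 FPKM, Kcnj12 at 1.36 FPKM and Kcnj14 at 1.26 FPKM, and Kcnj4 below 1 FPKM. The log2 fold changes of the 3 tested lay between -0.12 for Kcnj12 and 0.04 for Kcnj2. Kcnj13, a channel of ependymal and choroid plexus epithelium, was at 4.91 FPKM in WT 3 and at 0 in 5 of the 12 libraries.

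**Figure D4:**
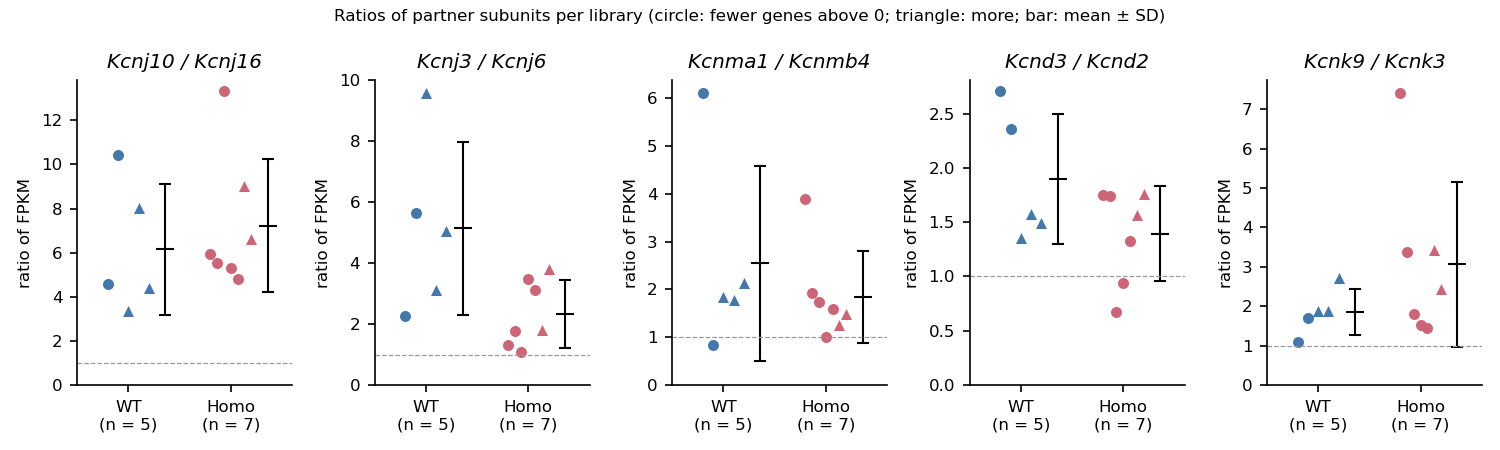
Ratio of the FPKM of channel subunits that assemble together or belong to one current, in each library, with WT in blue (n = 5), Homo in red (n = 7), circles for libraries with fewer genes above 0, triangles for those with more, bars for the mean ± SD and a dashed line at a ratio of 1. The Kcnj3 to Kcnj6 ratio has medians of 5.04 in WT and 1.80 in Homo with overlapping ranges, and the Kcnj10 to Kcnj16 ratio exceeds 1 in every library. The pairs, like the gene lists, were chosen with earlier results of these data known.

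Of the two-pore genes, 7 of 14 were tested, with 3 higher and 4 lower in Homo and a median log2 fold change of -0.09. Their summed level was 54.7 FPKM ± 13.3 (SD, n = 5) in WT and 52.7 FPKM ± 10.8 (SD, n = 7) in Homo. Kcnk2, the mechanosensitive and lipid-sensitive TREK channel gene, was the highest at 14.8 FPKM, with 16.1 FPKM ± 4.37 (SD, n = 5) in WT and 13.9 FPKM ± 2.94 (SD, n = 7) in Homo. Kcnk9 and Kcnk1 followed at 13.8 and 12.7 FPKM, and the ranges of the 3 genes overlapped.

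Kcnk3 and Kcnk9 code for the acid-sensitive TASK channels, which assemble with each other. Kcnk3 measured 10.1, 8.81, 4.37, 6.12 and 8.04 FPKM in WT 1 to WT 5 and 2.205 to 7.78 FPKM with a median of 6.02 FPKM in Homo, and no Homo library exceeded the WT median. The estimate was a log2 fold change of -0.42 (SE 0.28; exact permutation p = 0.158), split into -0.85 where fewer genes were above 0 and 0.04 where more were. Kcnk9 had a log2 fold change of 0.05 (SE 0.27) and exceeded Kcnk3 in all 12 libraries. Kcnk1, a weak inward-rectifying leak channel also found in astrocytes, measured 8.21 to 14.4 FPKM in WT and 8.69 to 19.9 FPKM in Homo, with the 2 highest values, 19.0 and 19.9 FPKM, in Homo 6 and Homo 7. Its log2 fold change was 0.12 (SE 0.25), made up of -0.32 in the set with fewer genes above 0 and 0.83 in the set with more.

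Within the library sets the members were counted against all genes. In the set with fewer genes above 0, 23 of the 57 members had a log2 fold change above 0 (40.1% of all genes tested), and in the set with more it was 42 (64.6%). The sign was opposite in the 2 sets for 29 of 57 members, or 50.9%, the share over all genes being 50.9% as well. The interaction of genotype with the set had an unadjusted p under 0.05 in 4 members, Kcna6, Kcnk1, Kcnn2 and Kcnd3 (7.02%, against 5.18% of all genes), and an adjusted p under 0.05 in 0 of them (0.0428% of all genes).

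**Figure D5:**
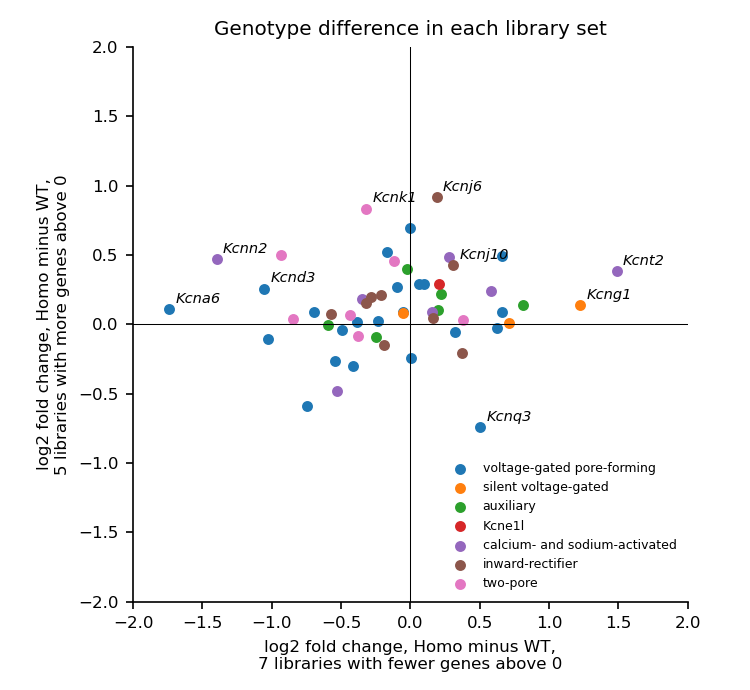
Log2 fold change between genotypes, Homo minus WT, within the 7 libraries with fewer genes above 0 (2 WT, 5 Homo, horizontal axis) and in the 5 with more (3 WT, 2 Homo, vertical axis), with 1 point for each of 55 genes, coloured by family. Points in the upper left and lower right differ in sign between the sets; Kcna6 lies at -1.74 and 0.11, Kcng1 at 1.22 and 0.14, and Kcnj10 at 0.31 and 0.43.

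The 34 genes below 1 FPKM, the 7 listed at 0 among them, were outside the test. When the 27 that were above 0 somewhere were entered without a minimum level, 0 had an unadjusted p under 0.05 in limma (2.8% of the 9594 genes of that level). Kcns1, a silent subunit, was above 0 in 2 WT libraries only, at 0.313 and 0.413 FPKM, and Kcnq1 and Kcnh3 did not exceed 0.199 and 0.0272 FPKM in any library.

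Proteins that bind, anchor or regulate these channels were listed beside the members. Of 37 such genes, among them calmodulins, G protein subunits, the Dpp subunits of Shal-type channels and scaffolds, 34 were tested, 18 being higher and 16 lower in Homo with a median log2 fold change of 0.00123 and a range of -0.38 to 0.35. None had an adjusted p under 0.05 in limma, and 0 had an unadjusted p under 0.05, against 5.55% of all genes. Dpp6, which sets the gating of Shal-type channels, measured 49.1 FPKM ± 7.83 (SD, n = 5) in WT and 48.6 FPKM ± 6.92 (SD, n = 7) in Homo. Dlg4, the PSD-95 scaffold that clusters Shaker-type and inward-rectifier channels, measured 418 FPKM ± 112 (SD, n = 5) in WT and 317 FPKM ± 59.7 (SD, n = 7) in Homo, with a log2 fold change of -0.38 (SE 0.20).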

How the data were processed

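The authors laser-captured the ARC from 14 µm cryosections, amplified the RNA across the whole transcriptome, sheared the cDNA to 200 bp, made bar-coded libraries and deposited 1 table of FPKM values. The submitters' processing notes name TopHat2 2.0.8, Cufflinks 2.2.1 and GRCm38; the strand setting is not given in the sources used here. Read counts were not used: ratios of low values between libraries showed no common step, so depth is unknown and no counting interval is given. FPKM sums ran from 1.33e+07 to 2.12e+07, with 95.9% to 98.1% in 10 genes.

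Values were taken as log2(FPKM + 1) for genes with a mean of at least 1 FPKM and fitted with limma 3.58.1 in R 4.3.3 (trend, robust), with genotype alone in the model and adjustment by Benjamini-Hochberg; fold changes understate those of low genes. Single genes were also tested by exact permutation over 792 splits. The scripts were tested on simulated data. Families follow gene symbols. The 28 genes followed through the alternatives were taken from the 3 highest of each of 6 families, a list of well-known subunits and those with an unadjusted p under 0.05; some members are counted but not reported here; other genes are named to complete a family or were chosen after their values were seen. Members and lists were chosen with earlier results of these data known. Gene positions are those of GENCODE mouse release 21 (GRCm38). Alternatives covered pseudocount, filter, normalization, weights, variance moderation, library set, replicate number and each library left out.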

Additional observations from a re-analysis of the deposited data

Results flagged for a closer look

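Among the named potassium channel genes, 54 groups of libraries were examined for a single library far from the rest on the log2 scale, of which chance flags about 1 in 20, and 4 were found. Kcnh2 was at 78.9 FPKM in WT 1, against 21.01 to 27.7 FPKM in the other WT libraries. Kcnq5 was at 3.22 FPKM in WT 2, against 1.93 to 2.14 FPKM. Kcnk2 was at 7.91 FPKM in Homo 3, against 12.4 to 16.9 FPKM in the other Homo libraries. Kcnj16 was at 3.59 FPKM in Homo 3, against 8.03 to 12.4 FPKM. The cause of these values was not tested.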

How the results depend on the processing

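Depth is unknown, so low members are the least certain, and with 2 WT or 2 Homo libraries in a library set the within-set values rest on few libraries. The count of members with an adjusted p under 0.05 was 0 under every alternative run. Of the 57 members, those with an unadjusted p under 0.05 numbered 3, but 1 with array weights (Kcnj10). They numbered 5 in the library set with fewer genes above 0 and 1 (Kcnk1) in the set with more. Leaving out single libraries gave 1 to 4, with 1 (Kcna6) both without WT 1 and without Homo 1. The same counts over all 14017 genes tested were 778, 844 with array weights, 838 in the set with fewer and 710 in the set with more. With single libraries left out they were 607 to 890, so the member counts cannot be read apart from this background. Over all genes, 1 passed the adjusted threshold, but 6 and 19 in the sets with fewer and more genes above 0, and 1 to 3 when single libraries were left out (3 without WT 2, 2 without Homo 4). The median log2 fold change of the silent subunits was 0.71 in the set with fewer genes above 0, that of the voltage-gated genes 0.089 in the set with more, and that of the calcium- and sodium-activated genes -0.043 to 0.40 with single libraries left out (0.40 without WT 2). Of 594 values of named genes under alternatives, 542 kept their direction and side of the threshold and 52 changed sign, 28 of these on leaving out 1 library; 9 of the 27 tested genes never changed sign. Signs changed in the set with more genes above 0 for Kcna6 (0.11), Kcnd3 (0.26), Kcnk3 (0.040), Kcnj3 (0.078), Kcna2 (0.026), Kcnk2 (0.065), Kcnd2 (0.090), Kcnj9 (0.15) and Kcnj16 (-0.20). They changed in the set with fewer for Kcnip3 (-0.024), Kcnf1 (-0.056), Kcnk1 (-0.32), Kcnq3 (0.50), Kcnk9 (-0.12) and Kcnt1 (-0.35). With the set as a covariate they changed for Kcnd2 (0.010) and Kcnt1 (-0.11), with array weights for Kcnd2 (0.021) and with quantile normalization for Kcnj9 (0.015). Leaving out single libraries, values crossed 0 for Kcnq3 (-0.39 to 0.10), Kcnd2 (-0.16 to 0.026), Kcnc1 (-0.11 to 0.25), Kcnj16 (-0.084 to 0.28), Kcnma1 (-0.045 to 0.14), Kcnk9 (-0.094 to 0.23), Kcnj9 (-0.17 to 0.063), Kcnt1 (-0.20 to 0.41) and Kcnj5 (-0.10 to 0.10). The causes of these changes were not tested.

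Replicate numbers did not pair the libraries: deviations of same-numbered WT and Homo libraries correlated at -0.0537 to 0.0288 across genes, and 0 of 5 WT libraries correlated best with their own number. With the replicate number as a replicate block, over 5 WT and Homo 1 to Homo 5, 2 genes passed the adjusted threshold. In that fit 5 of 57 members had an unadjusted p under 0.05 (Kcna6, Kcnd3, Kcng1, Kcnj3 and Kcnn2), beside 970 of all 14017 genes tested. Signs changed for Kcnk1 (-0.11), Kcnc1 (-0.0089), Kcnma1 (-0.035), Kcnk9 (-0.11) and Kcnj5 (-0.067).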
